A study of Bos taurus with 8 samples.

Results

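The adipogenic transcription factors and the lipid binding, uptake and storage genes of bovine muscle cell cultures were described from 8 two-colour arrays. Members were the genes PPARG, CEBPA, CEBPB, CEBPD, FABP3, FABP4, LPL, CD36, PLIN2 and ADIPOQ, and a probe was taken as a member when the RefSeq transcript it was designed for carried one of these symbols. Of the 10 genes, 6 had a matched probe, each with 1 probe printed in 2 spots. They were PPARG (NM_181024), CEBPA (NM_176784), FABP3 (NM_174313), FABP4 (NM_174314), LPL (NM_001075120) and PLIN2 (NM_173980), and all 6 were among the 17622 of 21475 probes tested. No probe was matched to CEBPB, CEBPD, CD36 or ADIPOQ, which are not analysed here.

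The cells were primary muscle cells of bulls aged 15 months, taken from the semitendinosus, grown in serum-containing medium and frozen while proliferating, at 80% confluence. Cells of the beef breeds Limousin (LIM) and Hereford (HER) were each compared with cells of the dairy breed Holstein Friesian (HF). The Cy3 channel held HER and the Cy5 channel HF on 4 arrays, whereas on the other 4 arrays LIM was in Cy5 and HF in Cy3. The labels call the replicates biological, and the methods give 4 bulls per breed, with HF as the reference in both comparisons, so that LIM and HER were compared through HF. The labels do not say which HF bull was on which array, but HF signals of a LIM and a HER array of one replicate number deviated together (r = 0.70 to 0.893 in 4 pairs over 14032 probes, against −0.506 to 0.0927 in the 12 pairs of different numbers). Arrays of one number are therefore read as holding the same HF culture, the 8 arrays are not 8 independent samples, and limma p-values over both comparisons, which take them as such, can be too small. Those calls were also tested with 1 value per replicate number (n = 4), an alternative chosen after seeing the data. Breed and dye could not be told apart between both comparisons, nor could any effect of slide, which the labels do not give. Preplating enriched the cultures for myoblasts without making them pure, and no adipogenic medium was used.

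Peroxisome proliferator-activated receptor gamma (PPARG) and CCAAT/enhancer-binding protein alpha (CEBPA) are the transcription factors that sustain each other's expression in terminal fat cell differentiation. Fatty acids reach a cell after lipoprotein lipase (LPL) has released them from circulating triglycerides. Inside the cell they are carried by fatty acid binding proteins, of which FABP3 is the form of heart and skeletal muscle and FABP4 that of adipocytes, macrophages and capillary endothelium, and they are stored in droplets that are coated by perilipin 2 (PLIN2) in most cell types. In muscle, intramuscular fat arises largely from fibro-adipogenic cells that lie between the fibers, and not from the fibers themselves.

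Values are log2 ratios of beef breed over HF on one array, so that 0 is equality and −1 is a halved signal. Signals printed below are the background-subtracted, dye-normalized intensities of the scanner software, which have no physical unit. Ratios of members and other single genes compare both channels of a probe on an array. Summed marker signals add different probes, so that bright probes weigh most in them. Words such as dim and bright rank probes only roughly. A difference was called when the Benjamini-Hochberg adjusted p of limma over all probes tested was at most 0.05 and the fold change at least 1.3. The software marks a spot as well above background from its own test, which 68.8% to 85.2% of the probes passed in the beef channel and 73.8% to 78.0% in the HF channel. Correlations between arrays over the probes tested ran from 0.345 to 0.779 within LIM and from 0.331 to 0.652 within HER.

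CEBPA had the largest mean difference of the 6 members in LIM and in HER, lower in beef cells on 8 of 8 arrays, as were 17% of all probes tested. In LIM cells, its signals were 53980, 40910, 32750 and 16100 on replicates 1 to 4, beside HF signals of 148300, 117100, 126900 and 115400. These gave log2 ratios of −1.46, −1.52, −1.96 and −2.84. In HER cells, signals were 43060, 50420, 50030 and 37040 beside HF signals of 110900, 95520, 68610 and 52770, with log2 ratios of −1.36, −0.92, −0.46 and −0.51. The beef signal was below the HF signal of the same array each time, and the transcript was among the bright ones, well above background in 16 of 16 channels.

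The CEBPA mean was −1.94 ± 0.64 in LIM (SD, n = 4; 95% interval −2.50 to −1.39), a 3.85-fold lower level that passed the test (limma, adjusted p = 0.00103). In HER the mean was −0.81 ± 0.42 (SD, n = 4; 95% interval −1.37 to −0.26), 1.76-fold lower (limma, adjusted p = 0.042). Of the probes tested, 0.948% had a lower LIM mean than CEBPA, against 7.46% for HER. Over both comparisons, in which a dye effect of the probe cancels, CEBPA fell 2.60-fold (log2 −1.38, SE 0.17, n = 8; limma, adjusted p = 0.000509), and it passed with 1 value per replicate number (adjusted p = 0.0027). The HER call depended on single arrays, also LIM arrays, which leave the HER mean unchanged and enter through the shared spread and the adjustment of p. It was lost without any 1 of the 4 HER arrays, LIM replicate 2 or LIM replicate 3 (adjusted p 0.0527 to 0.166), and after normexp background correction with marked local backgrounds replaced by the median of the array (adjusted p = 0.0647) and with the replicate number as a block (adjusted p = 0.0832). The LIM call and that of the mean were kept without any single array, with adjusted p of at most 0.00784 for LIM.

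In the scanner ratio, CEBPA was also the one member whose LIM and HER values did not overlap. Every LIM array, from −2.84 to −1.46, lay below every HER array, from −1.36 to −0.46. Such separation with LIM lower was found for 4.52% of the probes measured on all arrays, and in either direction for 10.2%. The separation was not kept under any of the 3 other background settings. LIM replicate 1 then stood at −1.36 after either form of normexp and at −1.33 without background correction, above HER replicate 1 at −1.37 in each. The difference between LIM and HER was −1.13 (95% interval −1.92 to −0.34), with an unadjusted limma p of 0.0106 that did not pass after adjustment (adjusted p = 0.196). A lower CEBPA in LIM than in HER was therefore measured on these arrays but not called, and LIM ratios were read on arrays and in a dye of their own.

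PPARG, the partner of CEBPA, had weaker and less even ratios. In LIM they were −0.28, −0.21, 0.22 and −1.56, and in HER −0.84, 0.10, −1.00 and −1.05. One array of each comparison lay above 0 (LIM replicate 3 and HER replicate 2), and LIM replicate 4 was far below the other LIM arrays. Signals were modest, from 161.1 to 837.8 in beef cells and 289.5 to 759.4 in HF cells, and all channels were well above background.

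The PPARG mean did not pass the test in LIM (−0.46 ± 0.77, SD, n = 4; limma, adjusted p = 0.246) nor in HER (−0.70 ± 0.54, SD, n = 4; limma, adjusted p = 0.11). At an unadjusted limma p of 0.0423 the HER value was among the 34.8% of all probes that passed without adjustment. Over both comparisons, PPARG fell 1.50-fold (log2 −0.58, SE 0.21, n = 8; limma, adjusted p = 0.0467). This call was narrow. It was lost with 1 value per replicate number (adjusted p = 0.0869). It was also lost without any one of 6 of the 8 arrays (all but HER replicate 2 and LIM replicate 3, the ones above 0), with adjusted p of 0.0619 to 0.103, and after normexp with marked backgrounds replaced (log2 −0.37; adjusted p = 0.108). Without LIM replicate 4 the HER value passed at an unchanged mean of −0.70 (limma, adjusted p = 0.0339), since the spread is estimated over both comparisons. LIM and HER did not differ detectably in PPARG, with a difference of 0.24 and an interval from −0.71 to 1.18.

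**Figure D1:**
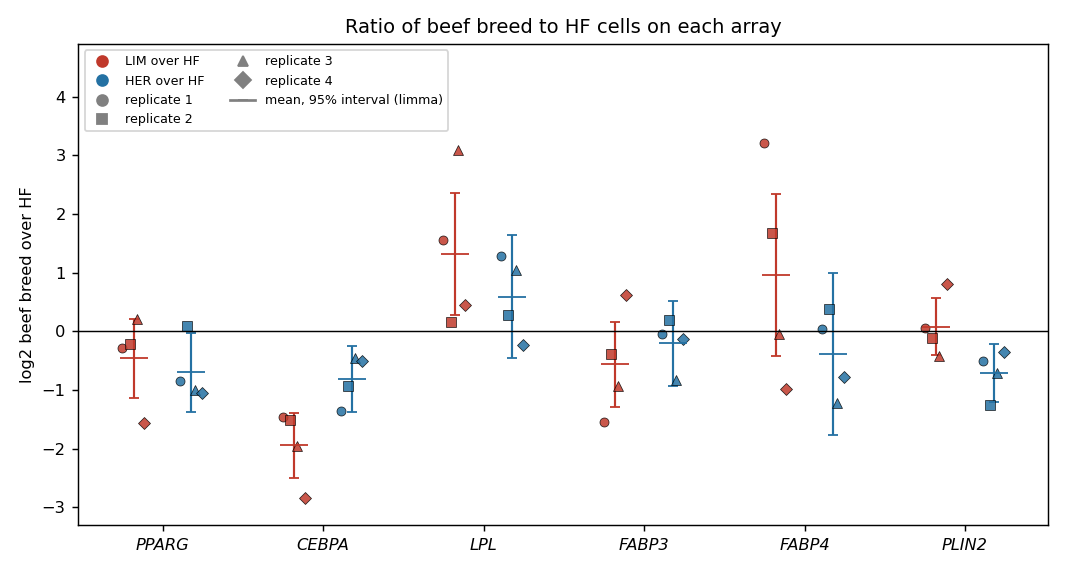
Log2 ratio of beef breed over HF (vertical axis) for each member with a probe, for LIM (red) and HER (blue). Symbols mark the replicate arrays, and bars give the mean with the 95% interval of limma. CEBPA lies below 0 on all 8 arrays, from −2.84 to −0.46, while FABP4 in LIM spans −0.99 to 3.21.

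Of the members tested, 1 was called in LIM (CEBPA, lower), where 34.4% of all probes were called and 18.3% were called lower. In HER 2 were called lower (CEBPA and PLIN2), where 24.4% of all probes were called and 14% were called lower. Over the mean of both comparisons 3 were called, CEBPA and PPARG lower and LPL higher, beside 38.1% of all probes, 20.4% lower and 17.7% higher. With 6 members, nothing particular to them is read from these counts, and of the 3 calls over both, CEBPA alone passed with 1 value per replicate number. The median log2 ratio of the 6 members was −0.19 in LIM and −0.54 in HER, where the median of all probes was −0.01 and −0.06.

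LPL, which frees fatty acids for uptake, was the one member called higher, and also the dimmest. Its signals were 118.6, 94.66, 201.2 and 81.74 in LIM cells beside 40.17, 84.42, 23.71 and 60.05 in HF cells. In HER they were 42.99, 57.59, 37.07 and 34.93 beside 18.69, 49.16, 18.01 and 41.03 in HF. The log2 ratios were 1.56, 0.16, 3.10 and 0.45 in LIM and 1.29, 0.28, 1.04 and −0.23 in HER, above 0 on 7 of 8 arrays. The highest ratios came from arrays on which HF was at the limit of detection. Both HF spots were below the mark of well above background on LIM replicate 3 and HER replicate 1, 1 of 2 was on LIM replicate 1 and on HER replicates 2 and 3, and on HER replicate 3 both HER spots were below it as well.

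The LPL mean was 1.32 ± 1.33 in LIM (SD, n = 4; limma, adjusted p = 0.053) and 0.59 ± 0.70 in HER (SD, n = 4; limma, adjusted p = 0.361), neither of which passed. Over both, LPL rose 1.94-fold (log2 0.96, SE 0.32, n = 8; limma, adjusted p = 0.039), a call that was lost with 1 value per replicate number (adjusted p = 0.0961). The size depended on how the background was handled. Normexp adds an offset of 50 to each signal, which draws the ratio of a dim spot toward 0, and with marked backgrounds replaced it gave a mean of both of 0.26 (adjusted p = 0.059). The mean of the LIM and HER means was 0.33 when only spots well above background in both channels were used, which 5 arrays held (limma, adjusted p = 0.274). With those spots only, HER had 0.10 and −0.23 and LIM had 1.55, 0.16 and 0.45. The LIM value passed without LIM replicate 2 or 4 (adjusted p 0.0408 and 0.0424) and with the replicate number as a block (adjusted p = 0.0166). The block takes out variation that arrays of one number share, so its p against HF does not measure the spread between HF cultures. The call over both was lost without HER replicate 1, 2 or 3 or LIM replicate 1 or 3 (adjusted p 0.0607 to 0.10), and the difference between LIM and HER, 0.72, had an interval from −0.75 to 2.20.

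**Figure D2:**
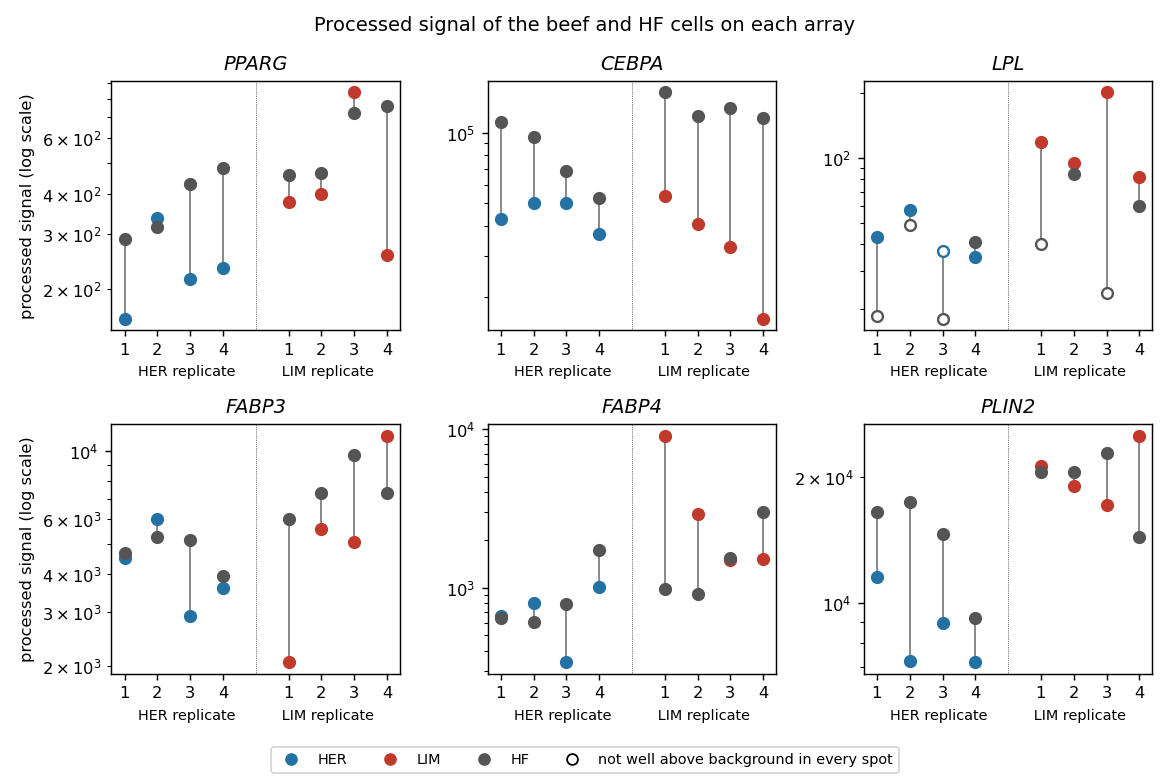
Processed signal (vertical axis, log scale, no unit) of beef breed cells (blue HER, red LIM) and HF cells (grey) for the 6 members, with replicate arrays along the horizontal axis. Lines join both channels of an array, and open symbols mark channels with a spot that was not well above background. For CEBPA the HF signal, from 52770 to 148300, is above the beef signal on all 8 arrays, and open symbols occur only for LPL.

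FABP4, the binding protein of fat cells and capillary endothelium, was the most variable member. In LIM cells the signals were 9080, 2907, 1499 and 1512, beside 980.8, 911.6, 1545 and 3004 in HF, with log2 ratios of 3.21, 1.67, −0.04 and −0.99. LIM replicates 1 and 2 were high and replicate 4 was low, so that the comparison spanned 4.20 on the log2 scale. In HER the ratios were 0.05, 0.39, −1.22 and −0.78, which overlapped LIM. Neither mean passed, with 0.96 ± 1.86 in LIM (SD, n = 4; limma, adjusted p = 0.243) and −0.39 ± 0.74 in HER (SD, n = 4; limma, adjusted p = 0.658).

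The LIM mean of FABP4 exceeded the HER mean by 1.35, but the interval of the difference ran from −0.60 to 3.30 (limma, adjusted p = 0.514). The 2 spots of the probe differed by at most 0.14 on any array, against ranges of 4.20 and 1.61 between the arrays of LIM and HER. Over both comparisons its mean was 0.29, and it was −0.09 without LIM replicate 1.

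FABP3, the muscle form, had ratios of −1.55, −0.38, −0.94 and 0.62 in LIM and −0.05, 0.19, −0.83 and −0.12 in HER. Both comparisons overlapped, and 1 array of each lay above 0. The means were −0.56 ± 0.92 in LIM (SD, n = 4; limma, adjusted p = 0.197) and −0.20 ± 0.44 in HER (SD, n = 4; limma, adjusted p = 0.661). Neither passed, and the difference between LIM and HER of −0.36 had an interval from −1.38 to 0.67. Without LIM replicate 4, the array above 0, the LIM mean was −0.96 (limma, adjusted p = 0.0221). In LIM, FABP3 was lowest on replicate 1 and highest on replicate 4, the reverse of FABP4, whereas in HER both were lowest on replicate 3 and highest on replicate 2.

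PLIN2, which coats lipid droplets, was bright in every channel and was called lower in HER but not in LIM. The HER signals were 11530, 7243, 8945 and 7195 beside 16440, 17420, 14620 and 9194 in HF, with log2 ratios of −0.51, −1.26, −0.71 and −0.35. In LIM cells, signals were 21250, 19050, 17110 and 25100 beside 20510, 20580, 22850 and 14340 in HF, with ratios of 0.05, −0.11, −0.42 and 0.81. HER was below HF on 4 of 4 arrays, whereas LIM arrays lay on both sides of 0. The lowest LIM array and the highest HER array overlapped slightly.

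In HER, PLIN2 fell 1.64-fold (log2 −0.71 ± 0.40, SD, n = 4; limma, adjusted p = 0.0424), and this call too was lost without any 1 of the 4 HER arrays, LIM replicate 1 or LIM replicate 2 (adjusted p 0.0545 to 0.168). Leaving out a LIM array changed the p-value and not the HER mean. In LIM the mean was 0.08 ± 0.52 (SD, n = 4; limma, adjusted p = 0.787), and it was −0.16 without LIM replicate 4, when the mean over both comparisons passed (log2 −0.43; limma, adjusted p = 0.0204). The difference between LIM and HER was 0.79 (95% interval 0.10 to 1.48), with an unadjusted limma p of 0.0291 and an adjusted p of 0.27. Thus no member differed between LIM and HER after adjustment, where 0.233% of all probes did, and 2 of 6 (CEBPA and PLIN2) passed the unadjusted threshold that 14.1% of all probes passed. In bulk cultures such as these, fewer cells of a type and less RNA per cell cannot be told apart.

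**Figure D3:**
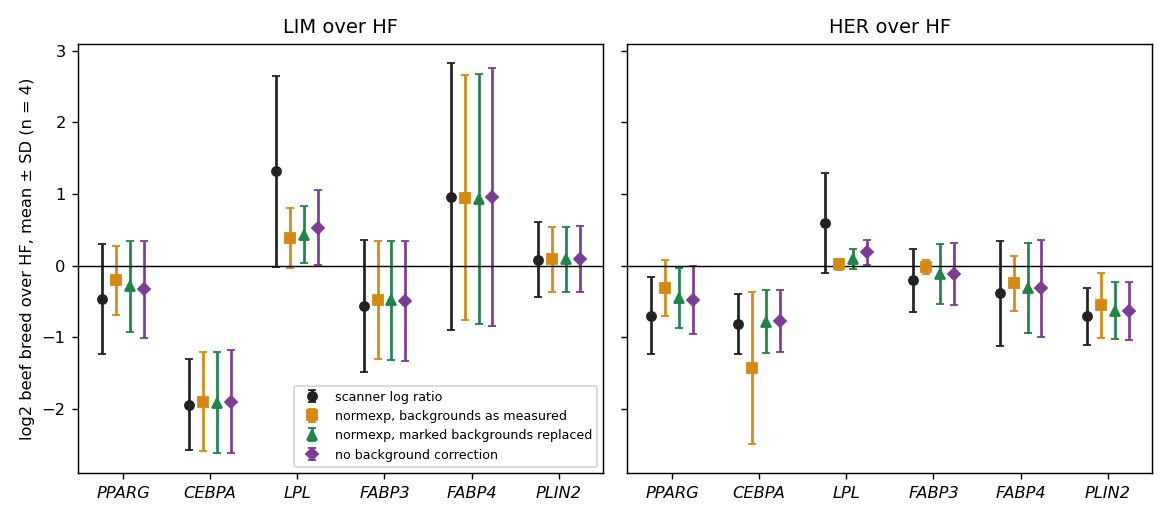
Mean log2 ratio of LIM over HF and of HER over HF (vertical axis, mean ± SD of 4 arrays) for the 6 members under 4 ways of handling the background. LPL moves the most in LIM, from 1.32 with the scanner log ratio to 0.38 after normexp on backgrounds as measured, and CEBPA in HER reaches −1.43 under the same setting.

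Further regulators of fat cell formation did not move one way. Of 30 named, 18 were tested, and over both comparisons 4 were called higher, 4 lower and 10 were not called, with a median of −0.14 beside −0.04 for all probes. Shares of 17.7% higher and 20.4% lower over all probes stand beside these counts and those of the other lists, and nothing particular to a list is read from them. KLF5, which acts upstream of PPARG, rose by a log2 of 1.09 (limma, adjusted p = 0.0047), but did not pass in HER alone (limma, adjusted p = 0.0587). DDIT3, a stress-induced C/EBP family member that can block its partners, rose by 0.98 on 8 of 8 arrays (limma, adjusted p = 0.00259). PPARA was also called higher, but its HF signal was well above background on 0 of 8 arrays, and the HER signal on 1 of 4. Set against the lowest signal well above background on each array, its LIM mean was at least 1.24-fold above HF, and no bound is given for HER. The bound is on the mean and not on each array. LIM ratios were 2.16, 1.02, 0.61 and −0.22, and PPARA did not pass in LIM (limma, adjusted p = 0.0598). The log2 value of PPARA was 0.16 after normexp with marked backgrounds replaced, and its call was lost. The regulators called lower were EBF2 and ZNF423, which mark committed preadipocytes, the sterol-sensing liver X receptor NR1H3 and SREBF1. EBF2 fell by 1.12 (limma, adjusted p = 0.0101), ZNF423 fell by 0.94 (limma, adjusted p = 0.0287) and NR1H3 fell by 0.59 (limma, adjusted p = 0.00157), and EBF2 and NR1H3 were lower on 8 of 8 arrays. ZNF423 passed neither in LIM nor in HER alone (limma, adjusted p = 0.0859 and 0.158), and EBF2 did not pass in HER (limma, adjusted p = 0.108). After normexp with marked backgrounds replaced, EBF2 stood at −0.48 and ZNF423 at −0.48, and the ZNF423 call was lost (adjusted p = 0.065), as it was without HER replicate 2 or 4 or LIM replicate 2 or 3 (adjusted p 0.0694 to 0.0755). With 1 value per replicate number EBF2 and ZNF423 did not pass (adjusted p = 0.0509 and 0.0658).

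Of 31 genes named for fatty acid uptake, binding and activation, 19 were tested, with 8 called higher, 4 lower and 7 not called over both comparisons, and a median of 0.29. Those called higher include LIPC, hepatic lipase, whose HF signal was well above background on 0 of 8 arrays and whose log2 value of 0.78 was 0.07 after normexp with marked backgrounds replaced. ANGPTL4, a secreted inhibitor of LPL and a known target of PPAR receptors, rose by 2.72 ± 0.46 in LIM and 1.79 ± 0.22 in HER (SD, n = 4 each; limma, adjusted p of the mean of both = 8.04e-05). Its LIM ratios ran from 2.08 to 3.10 and its HER ratios from 1.65 to 2.12, on 8 of 8 arrays above HF. VLDLR, the receptor that binds triglyceride-rich lipoproteins beside LPL, rose by 1.35 (limma, adjusted p = 0.00503), but did not pass in HER alone (limma, adjusted p = 0.0529). FABP2, the intestinal form, rose by 1.09 (limma, adjusted p = 0.00472), but did not pass in LIM alone (limma, adjusted p = 0.0675). After normexp with marked backgrounds replaced, FABP2 stood at 0.33 (limma, adjusted p = 0.0276), under the fold threshold and with no call.

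Within the same list, FABP5, the epidermal form that fat cells also express, fell by 1.17 (limma, adjusted p = 0.0122), with a mean of −0.74 in LIM and −1.60 in HER. FABP5 passed in HER (limma, adjusted p = 0.0272) but not in LIM (limma, adjusted p = 0.199). Its second probe gave −1.09 over both. The acyl-CoA synthetases ACSL5 and ACSL6, which activate fatty acids, fell by 0.98 (limma, adjusted p = 0.00286) and by 0.82 (limma, adjusted p = 0.00602). ACSL6 passed in LIM (log2 −1.14; limma, adjusted p = 0.0092) but not in HER (log2 −0.49; limma, adjusted p = 0.177). Of the binding proteins tested, FABP5 was thus called lower and FABP2 higher under the scanner ratio, while FABP3, FABP4 and FABP7, the brain form (log2 0.86; limma, adjusted p = 0.0769), were not called.

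Of 26 genes named for lipid droplets, triglyceride synthesis and lipolysis, all 18 with a probe were tested. By the brightest probe of each, 3 were called higher, 2 lower and 13 not called over both comparisons, with a median of −0.01. PLIN1, the droplet coat of fat cells, rose by 1.05 on 8 of 8 arrays (limma, adjusted p = 0.00505), but HF was well above background on only 2 of 4 LIM arrays and 2 of 4 HER arrays, and its value was 0.28 after normexp with marked backgrounds replaced. CIDEA, a droplet fusion protein, rose by 0.77 (limma, adjusted p = 0.0151), but passed neither in LIM nor in HER alone (limma, adjusted p = 0.0664 and 0.0865). FITM2 had 2 probes of opposite sign, 0.93 for the brighter and −0.61 for the dimmer, both called, so that its count among the genes called higher rests on the brighter probe and no direction is given for it. BSCL2 (seipin) fell by 0.57 (limma, adjusted p = 0.00395) and AGPAT2, an acyltransferase of triglyceride synthesis, fell by 0.57 (limma, adjusted p = 0.0248). Neither passed in HER alone (limma, adjusted p = 0.0703 for BSCL2 and 0.351 for AGPAT2). The AGPAT2 call was lost without HER replicate 1 or 2 or LIM replicate 1 or 2 (adjusted p 0.0629 to 0.0663) and with 1 value per replicate number (adjusted p = 0.0903).

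Among adipokines, adiponectin receptors and related genes, 13 were named and 9 tested, with 2 called higher, 3 lower and 4 not called over both comparisons, and a median of −0.21. CDH13, the cadherin that binds adiponectin, rose by 4.49 ± 1.18 in LIM and 3.40 ± 0.84 in HER (SD, n = 4 each; limma, adjusted p of the mean of both = 0.00015), on 8 of 8 arrays, and its value stood beyond that of any member. RBP4 rose by 0.54 (limma, adjusted p = 0.0342), and lost its call without HER replicate 1 or 3 or LIM replicate 2, 3 or 4 (adjusted p 0.0594 to 0.0899) and with the replicate number as a block (adjusted p = 0.08). RBP4 passed neither in LIM nor in HER alone (limma, adjusted p = 0.187 and 0.0967). SLC2A4, the insulin-responsive glucose transporter of muscle and fat, fell by 0.93 (limma, adjusted p = 0.000259) and CFD (adipsin) fell by 0.75 (limma, adjusted p = 0.00539), with −0.53 and −0.37 after normexp with marked backgrounds replaced, the latter under the fold threshold. CFD passed in LIM (log2 −1.18; limma, adjusted p = 0.00512) but not in HER (log2 −0.32; limma, adjusted p = 0.315). LEP was called lower as well (log2 −0.38; limma, adjusted p = 0.0122), but neither HER nor HF cells were well above background on the HER arrays. Its value was −0.08 after normexp with marked backgrounds replaced, with no call.

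Of the fatty acid oxidation genes that respond to PPAR receptors, 15 are reported and 8 of them were tested, with 1 called higher, 1 lower and 6 not called over both comparisons, and a median of 0.21. PDK4, a much used readout of PPAR activity that spares glucose, fell by 0.75 on 8 of 8 arrays (limma, adjusted p = 0.000284), a value of −0.34 and under the fold threshold after normexp with marked backgrounds replaced. ACADVL, the first enzyme of long-chain oxidation, rose by 0.63 (limma, adjusted p = 0.00859), but did not pass in LIM alone (limma, adjusted p = 0.061). PDK4 and ANGPTL4, both known to respond to PPAR receptors, thus moved in opposite directions. No gene reported from the 5 lists was called between LIM and HER.

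**Figure D4:**
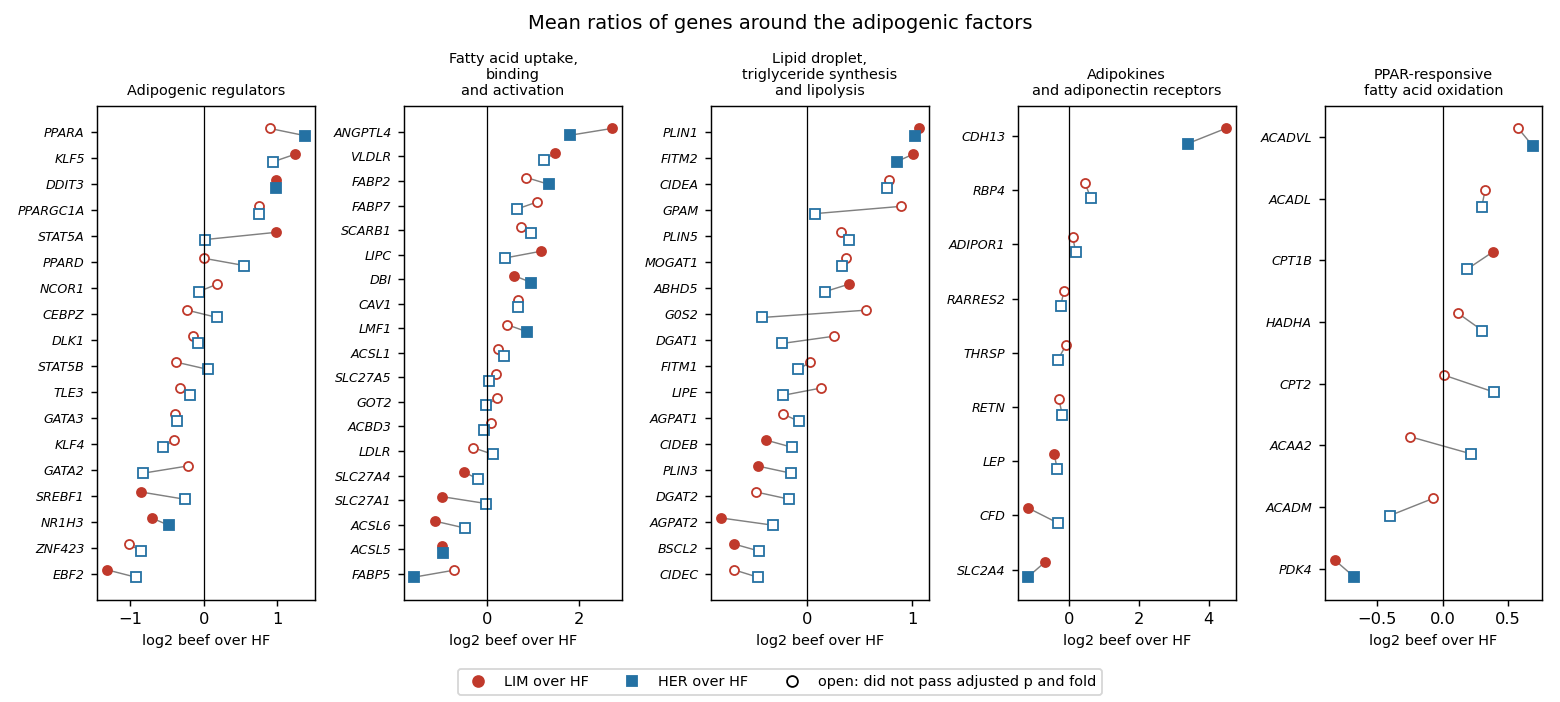
Mean log2 ratio of LIM over HF (red circles) and HER over HF (blue squares) for the tested genes of the 5 lists (horizontal axis, one row per gene, 4 arrays per mean). Filled symbols passed the adjusted p and fold thresholds in that comparison. ANGPTL4 and CDH13 lie farthest to the right, at 2.72 and 4.49 in LIM.

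Markers of the cells in the cultures moved with the comparison. All 9 muscle markers tested were called higher in beef cells over both comparisons, with log2 values in LIM from 0.88 for MYOD1 to 4.30 for MYH3. Muscle transcripts were thus detected in all of the cultures, since each of these markers was well above background in 16 of 16 channels. The same held for COL1A1, COL3A1, DCN, LUM, THY1 and PDGFRA, so detection alone does not give the identity of the cultures. Of 8 markers of fibro-adipogenic and connective tissue cells, 5 were called higher (COL1A1, COL3A1, DCN, LUM and THY1, with COL1A1 at a log2 of 2.13 in LIM and 2.30 in HER), and 1 lower, PDGFRA, the receptor that marks fibro-adipogenic cells (−1.48 in LIM and −1.36 in HER, lower on 8 of 8 arrays).

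Of 6 markers of mature adipocytes, 1 was called higher (PLIN1) and 2 lower (CFD and LEP). None of the 3 was called after normexp with marked backgrounds replaced, which gave 0.28, −0.37 and −0.08. The summed signal of the 6 was 355.5 to 593.1 in beef cells and 313.5 to 974.4 in HF cells. LEP was well above background in 6 of 16 channels. Of 6 endothelial markers 0 were called over both comparisons by limma (1 at an unadjusted p, TIE1), CLDN5 was called lower in HER (log2 −0.57; limma, adjusted p = 0.0147), and their summed ratio ran from −2.69 to 3.24 in HER and from −0.58 to 3.54 in LIM. The endothelial sum stood at −0.58, 3.16, 0.98 and 3.54 on LIM replicates 1 to 4, beside FABP4 ratios of 3.21, 1.67, −0.04 and −0.99. On HER replicates 1 to 4 it stood at 3.24, 0.15, −2.69 and 1.75, beside FABP4 at 0.05, 0.39, −1.22 and −0.78. Both were lowest of all arrays on HER replicate 3, both were high on LIM replicate 2, and they differed most on LIM replicates 1 and 4. Of 2 macrophage markers tested, CD68 was called higher (log2 0.81; limma, adjusted p = 0.00373), with HF well above background on 2 of 4 HER arrays and a value of 0.26, under the fold threshold, after normexp with marked backgrounds replaced. CD14 stood at 0.01, and AIF1, ITGAM and C1QA were too dim to be tested. The part of these cell types in the values of the members was not tested.

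**Figure D5:**
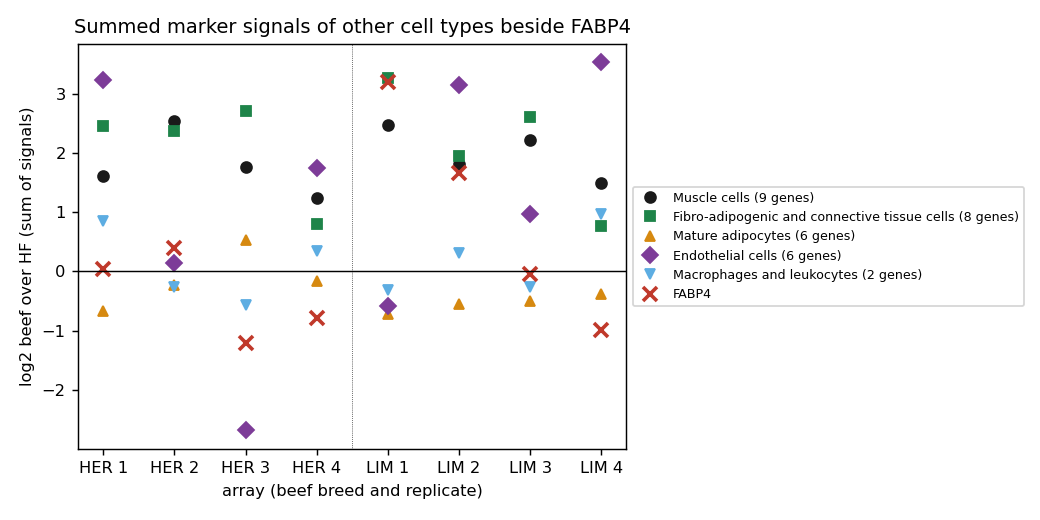
Log2 ratio of beef breed over HF of the summed processed signal of 5 marker lists (filled symbols), with FABP4 (red cross), on each of the 8 arrays along the horizontal axis. The muscle sum is above 0 on every array, and the endothelial sum and FABP4 are both at their lowest on HER replicate 3 (−2.69 and −1.22) but lie far apart on LIM replicates 1 and 4.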

How the data were processed

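RNA of muscle cell cultures was hybridized on 8 two-colour arrays, with breed, dye and replicate number as the labels state them. The authors deposited the output of Feature Extraction 10.7.3.1 for each array. It holds the log10 ratio of Cy5 over Cy3, corrected by the software for background and dye, the intensity of each spot and its local background, and other columns of 0 or 1 marks for detection and outlying spots, which the authors left as the software wrote them. The series table that the authors deposited repeats these log10 values.

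The log10 ratio was turned into log2 beef over HF, with its sign turned on the HER arrays, where beef cells carried Cy3. Control spots and spots marked as outliers (6 to 130 per array) were left out, and spots of a probe were averaged. No spot was saturated. The software writes a ratio of 0 where neither channel is above background, as in 3673 to 7090 spots per array. A probe was tested when 4 or more of its 16 channels were well above background, using limma 3.58.1 in R 4.3.3 (lmFit, eBayes) in 1 fit over all 8 arrays, which gave each comparison, the mean of both and their difference. A gene with several probes was read from the brightest one. Deviations of log2 HF signals from the comparison means correlated at 0.70 to 0.893 between LIM and HER arrays of one replicate number, and 8 of 8 arrays correlated best with their own number, so the numbers were taken to pair the HF cultures. Deviations of beef signals correlated at −0.602 to 0.123 within numbers, against −0.272 to 0.501 between different numbers. Those of the ratios correlated at −0.24 to 0.54 within numbers, against −0.468 to 0.404 between them. The ranges of the ratios overlapped widely, so the pairing was read from the HF signals and was not clear in the ratios. The small number of arrays, 4 per comparison, limits the precision.

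Probes were named through the RefSeq accession of their transcript, and 7793 of 20693 accessions were found in the annotation of ARS-UCD2.0. No coordinates are given, since the array grid rests on another build. Members, lists and marker genes were chosen with earlier results of these data known, and genes of the lists were named by their size among those called over both comparisons, up to 3 in each direction. One gene of the fatty acid oxidation list is not reported here. SREBF1, LIPC, FABP7, TIE1, CLDN5, CD68 and CD14 and the markers of the cultures were named after their values were seen. On simulated data of 17622 probes, the test over the mean of both comparisons recovered 95% of simulated log2 changes of 2 and 81% of changes of 1, against 85% and 65% in LIM and 85% and 60% in HER. The simulation drew independent errors for every array and changed few probes. Recovery and false calls with HF cultures shared between arrays were therefore not tested. Alternatives covered background correction, centring, scaling, filters, the methods' t-test, the adjustment of p, array weights, a replicate block, 1 value per replicate number and each array left out in turn.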

Additional observations from a re-analysis of the deposited data

Results flagged for a closer look

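Dixon's test on the 4 arrays of a comparison was run in 60 groups and marked 3, and chance alone marks about 1 in 20 groups. No member was marked. ANGPTL4 stood at 2.12 on HER replicate 1, beside 1.65 to 1.71 on the other HER arrays. VLDLR stood at −0.01 on LIM replicate 4, beside 1.88 to 2.06 on the other LIM arrays. SLC2A4 stood at −1.55 on HER replicate 4, beside −1.10 to −1.02.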

How the results depend on the processing

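The fall of CEBPA over both comparisons passed in 16 of 16 alternatives (log2 −1.67 to −1.29) and without each array in turn. In LIM it passed in 17 of 18, the exception being the methods' t-test after adjustment (adjusted p = 0.0675), and in HER in 11 of 18. The fall of PLIN2 in HER passed in 14 of 18, that of PPARG over both in 9 of 16 and the rise of LPL over both in 9 of 15. Not all of these alternatives could lose a call, so the counts overstate how far the calls were tried. The series table repeats the same ratios, and counting every probe by itself repeats the main fit. An unadjusted p or no fold threshold only loosens a call. Both-channel spots changed the ratios of LPL alone among the members. Of 24 further genes named over both comparisons, 0 turned direction, but 10 lost their call under at least 1 alternative (PPARA, EBF2, ZNF423, FABP2, PLIN1, AGPAT2, CFD, LEP, RBP4 and PDK4), 7 of them after normexp with marked backgrounds replaced. Under that setting PPARA, FABP2, PLIN1, CFD and PDK4 kept an adjusted p of at most 0.05 and missed only the fold threshold.

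PLIN2 in LIM turned to −0.16 with array weights and ran from −0.1588 (without LIM replicate 4) to 0.2494 when 1 array was left out. FABP3 in HER ran from −0.3352 to 0.0066 (without HER replicate 3), and FABP4 over both from −0.0886 (without LIM replicate 1) to 0.6116. LPL in HER was −0.0644 with only spots well above background in both channels, an alternative chosen after seeing the data. On CEBPA, HER replicate 3 read −2.93 after normexp on backgrounds as measured, −0.39 with marked backgrounds replaced and −0.46 in the scanner ratio. The causes were not tested.

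Members called in LIM, 1 as reported, were 2 after normexp with marked backgrounds replaced, without background correction and at an unadjusted p, 3 with array weights and 0 by the adjusted t-test (1003 probes). In HER, 2 as reported, they were 0 after normexp on backgrounds as measured (0 probes), with arrays centred on their median, without a filter and by the adjusted t-test (2 probes), and 1 after normexp with replaced backgrounds and without background correction. The unadjusted t-test of the methods called 4822 HER probes. Over both, 3 as reported, they were 1 under the same 3 background settings (3265 probes with backgrounds as measured) and without a filter. Between LIM and HER, 0 as reported, they were 2 unadjusted. Probes called between LIM and HER, 41 as reported, were 0 with backgrounds as measured, in probes above background in all 16 channels and in both-channel spots, 1 with replaced or uncorrected backgrounds, 12 after scaling, 76 without a filter, 256 with array weights and 2480 unadjusted.

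Leaving out 1 array at a time gave 1 to 3 members and 3796 to 7010 probes in LIM (3796 without LIM replicate 3), 0 to 3 members and 1527 to 5437 probes in HER (1576, 1527 and 2667 without HER replicates 1, 2 and 3), 1 to 4 members over both, and 1 to 14 probes between LIM and HER. With the replicate block, 2 members were called in LIM (LPL added), 1 in HER (CEBPA lost, adjusted p = 0.0832), 3 over both, and 0 probes between LIM and HER. Its p-values against HF leave out the spread that arrays of one number share. Of the 24 further genes named over both comparisons, RBP4 alone lost its call with the block. The block was fitted to all probes tested, and 6357 were called in LIM and 4304 in HER. Its calls of other genes that are not members, and of non-members within LIM or HER, are not given by gene. With 1 value per replicate number, 1 member (CEBPA) and 5757 probes were called over both comparisons and 0 probes between LIM and HER. Slide as a block was not run, and the labels do not give the slide of an array.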
